A study of Homo sapiens with 12 samples.

Results

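MAPK4, CPS1 and TAGLN are 3 of the 26341 genes in an expression table of DU145 cells, and they were picked because each differed between cells given decitabine with triptolide and cells given decitabine alone. DU145 is a prostate cancer line that was derived from a metastasis to the central nervous system. The 4 groups, with 3 libraries each, were vehicle (DMSO, Ctrl), 2 nM triptolide (TPL), 33 nM decitabine (DAC) and triptolide plus decitabine (DACTPL). Drug was added daily for 3 days, 17 days of growth without drug followed, and total RNA was taken at 20 days. The sources differ on the decitabine added in DACTPL, with 33 nM on the samples and 3 nM in the protocol text, and this was not resolved. All groups were 1 cell line, and the labels did not say whether the libraries came from separate cultures, so errors and p-values measured the spread between libraries, which may be technical.

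Decitabine replaces cytidine in newly made DNA and inactivates DNA methyltransferases, so that methylation at CG dinucleotides is lost as cells divide. Triptolide inhibits the XPB helicase of the general transcription factor TFIIH. MAPK4 encodes ERK4, an atypical mitogen-activated protein kinase that binds and activates the kinase MK5 and, in cancer cells, phosphorylates AKT. CPS1 encodes carbamoyl phosphate synthetase of the mitochondrion, which makes the first committed intermediate of the urea cycle from ammonia and is normally abundant in liver and small intestine. TAGLN encodes transgelin (SM22), an actin-binding protein of smooth muscle whose gene is a classical target of the serum response factor SRF and its MRTF coactivators and is induced by TGF-beta.

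The libraries held 26.4 to 47 M expected counts, and 15890 genes, all 3 members among them, passed the filter on low counts. Levels are given as CPM, the counts scaled to a common library size, as mean ± SD with n = 3. In the contrast that selected the genes, DACTPL against DAC, edgeR called 5 genes (0.0315% of those tested) at an adjusted p below 0.05, of which 3 were higher (0.0189%) and 2 lower (0.0126%). The members were 3 of these 5. The others were DUSP5, a phosphatase of ERK kinases (82.4 ± 1.74 CPM in DAC and 60.6 ± 1.56 CPM in DACTPL), and IFI27, an interferon-induced gene (9.88 ± 0.575 and 16.9 ± 2.72 CPM), named after their values were seen. All 5 had the same adjusted p of 0.0279, which gives their place at the threshold and is no test of the members, since this contrast chose them. By rank, CPS1 and DUSP5 (log2 fold changes of 0.99 and -0.44) were the last inside the threshold, and TUFT1 (-0.34) and SLC7A2 (0.60) were the first outside it, both at 0.0932. The count of 5 became 0 without Ctrl replicate 1 or 2, TPL replicate 1, DAC replicate 1, or DACTPL replicate 1 or 2, and 1 without DAC replicate 2 or DACTPL replicate 3. It was 8 without TPL replicate 3, 11 without DAC replicate 3 and 84 with DESeq2. Because this contrast chose the members, their differences in it are described without a test. The same holds for their other comparisons that use DAC or DACTPL libraries. TPL against Ctrl compares none of these libraries, and there the members were tested, although the DAC and DACTPL libraries take part in the filter and in the estimate of the spread.

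The epithelial markers KRT8, KRT18, KRT19, EPCAM and CDH1 were expressed in all libraries and summed to 2170 to 2260 CPM in Ctrl, 2040 to 2360 CPM in TPL, 2490 to 2760 CPM in DAC and 2390 to 2520 CPM in DACTPL. CPS1 is a hepatocyte gene and TAGLN a smooth muscle gene, so markers of those tissues were looked at. Of 10 hepatocyte markers, APOB, APOC3, TTR and ARG1 had 0 counts in every library. The summed level, carried by SERPINA1, was 65 to 76.1 CPM in Ctrl, 82.8 to 93.5 CPM in TPL, 38.8 to 52.4 CPM in DAC and 49.6 to 56.7 CPM in DACTPL. The 7 intestinal markers summed to 0.418 to 0.556 CPM in Ctrl and 0.448 to 1.06 CPM in DACTPL, with FABP1 and FABP2 at 0 throughout. The 11 smooth muscle and stromal markers summed to 8.52 to 11.1 CPM in Ctrl, 8.28 to 12.3 CPM in TPL, 8.4 to 12.8 CPM in DAC and 13.3 to 15.3 CPM in DACTPL. COL1A1 made up most of that sum, and the defining contractile marker MYH11 stayed at or below 0.0682 CPM in all libraries. Of the 3 tested among these markers, edgeR called 2 in DAC vs Ctrl (9.86% of all genes), 2 in DACTPL vs Ctrl (13.5%) and 2 in DACTPL vs TPL (10.5%). Mean CPM in Ctrl, DAC and DACTPL were 0.356, 0.77 and 0.757 for PDGFRB, and 0.102, 0.339 and 0.405 for COL1A2. In TPL the mean of COL1A2 was 0.033 CPM. Its Ctrl and TPL means lay below the 0.307 CPM of the filter on low counts, so it was tested through the decitabine groups, where it was higher. The part of these markers in the level of TAGLN, which was lower in DACTPL than in DAC, was not tested. In bulk RNA, fewer cells that express a gene and less of its RNA per cell cannot be told apart.

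A pair of promoter sequences is shown because decitabine acts at CG dinucleotides and because MAPK4 and CPS1 were the members that were higher in both decitabine groups. Each runs from 250 bases before to 50 after a RefSeq start of the GRCh38.p14 build, 5′ to 3′ on the plus strand, with every CG in capitals. RefSeq promoters matched 2 of the 3 members. TAGLN was the other. The MAPK4 window lies at chr18:50559837-50560136 and the CPS1 window, at the most upstream of its 3 listed starts, at chr2:210477435-210477734.
MAPK4: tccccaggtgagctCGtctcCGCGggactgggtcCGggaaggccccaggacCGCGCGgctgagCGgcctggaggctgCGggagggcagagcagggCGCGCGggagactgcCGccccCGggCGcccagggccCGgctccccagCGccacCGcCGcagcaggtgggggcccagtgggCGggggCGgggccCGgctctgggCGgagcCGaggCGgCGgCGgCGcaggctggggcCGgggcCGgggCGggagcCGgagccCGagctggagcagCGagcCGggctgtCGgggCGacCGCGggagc
CPS1: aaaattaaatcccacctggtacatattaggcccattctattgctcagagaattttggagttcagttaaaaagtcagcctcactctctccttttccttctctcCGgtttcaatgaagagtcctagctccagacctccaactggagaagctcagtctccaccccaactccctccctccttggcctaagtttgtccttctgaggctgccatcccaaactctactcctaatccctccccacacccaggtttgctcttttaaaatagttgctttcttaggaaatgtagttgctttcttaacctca
The MAPK4 window held 39 CG and was 82.7% G or C. Of 35116 RefSeq promoters of this length, 8.71% held as many CG or more. The CPS1 window held 1 CG, and 11% of promoters held 1 or none. The other CPS1 starts had 3 CG each. The median promoter held 14, and 96% held at least 1. DNA methylation was not among the data, gene-level counts do not show which start was used, and the letters say nothing of the state of these sites in DU145.

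MAPK4 was lowest in vehicle, intermediate after either drug alone and highest after the combination. Its levels were 1.09, 0.904 and 1.27 CPM in the Ctrl libraries, 2.01, 1.5 and 2 CPM in TPL, 2.4, 2.34 and 2.91 CPM in DAC, and 5.32, 4.98 and 4.99 CPM in DACTPL. No library of one group overlapped the next group in the order Ctrl, TPL, DAC, DACTPL. Between DACTPL and DAC, 9.52% of all genes were higher without overlap and 10.3% were lower. The share of genes with DAC above TPL, or with the whole order, was not counted. The group means were 1.09 ± 0.186, 1.84 ± 0.296, 2.55 ± 0.312 and 5.1 ± 0.192 CPM. The DACTPL libraries were also the closest to one another, with a coefficient of variation of 3.78% against 17.1% in Ctrl, where the counts behind each value were fewer (131 over the Ctrl libraries and 544 over the DACTPL libraries).

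**Figure D1:**
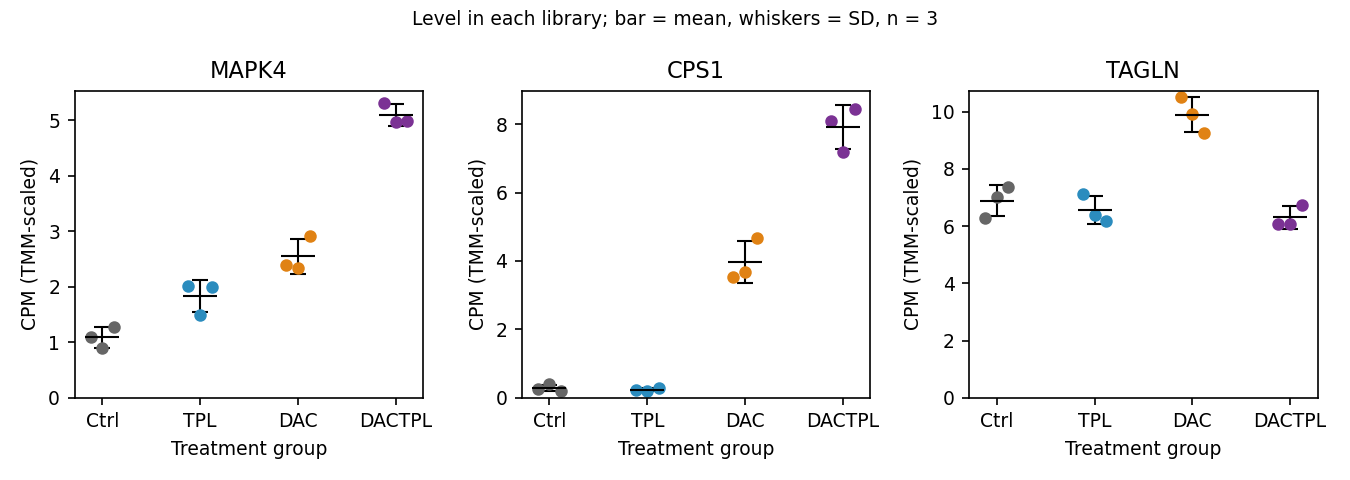
Level of MAPK4, CPS1 and TAGLN in CPM (vertical axis, from 0) in each of the 12 libraries, by treatment group (horizontal axis), with points for libraries, bars for means and whiskers for SD (n = 3). MAPK4 climbs in steps from 1.09 to 5.1 CPM, CPS1 is near 0 without decitabine, and TAGLN stands out in DAC alone at 9.89 CPM.

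Triptolide alone raised MAPK4 1.66-fold over vehicle, a log2 fold change of 0.73 (SE 0.17, edgeR quasi-likelihood adjusted p = 0.0467), with 3 of 3 TPL libraries above every Ctrl library. It was the 1 member of 3 called in this comparison, in which 2.47% of all genes were called, 1.68% higher and 0.787% lower. Without overlap, 11.3% of genes lay above Ctrl and 11.1% below. The call was marginal. It was kept in 8 of 23 alternatives, and leaving out 1 library kept it only for Ctrl replicate 3 (adjusted p = 0.0336) and DAC replicate 3 (adjusted p = 0.044). In the other 10 such fits the adjusted p ran from 0.0547 without DACTPL replicate 2 to 0.198 without Ctrl replicate 2, and over all alternatives it ran from 0.0165 to 0.198. The log2 fold change stayed between 0.63 and 0.87 without any 1 library. With the TPL and Ctrl libraries alone in the fit the adjusted p was 0.158. With the replicate number as a block, which moved the count of calls in TPL vs Ctrl from 392 to 1288, it was 0.0165.

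Decitabine alone was accompanied by 2.31-fold more MAPK4 than vehicle (log2 fold change 1.21, SE 0.16), and the combination by 4.61-fold more (2.20, SE 0.15). Adding triptolide to decitabine went with a 1.99-fold difference (0.99, SE 0.14), and adding decitabine to triptolide with a 2.78-fold difference (1.48, SE 0.15). On the log2 scale the changes of the single drugs summed to 1.94, and the combination stood at 2.20. The interaction, which measures that gap, was 0.27 (SE 0.22).

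CPS1 was close to silent in cells that had not received decitabine. The 3 Ctrl libraries held 0.253, 0.402 and 0.209 CPM and the TPL libraries 0.232, 0.199 and 0.296 CPM, which overlapped. The DAC libraries held 3.53, 3.69 and 4.68 CPM and the DACTPL libraries 8.1, 7.19 and 8.45 CPM. Every decitabine library was far above every library without it, and every DACTPL library was above every DAC library. The share of all genes with this order was not counted. The order of the means was TPL (0.242 ± 0.049), Ctrl (0.288 ± 0.101), DAC (3.97 ± 0.622) and DACTPL (7.91 ± 0.648), with TPL and Ctrl not apart.

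The low end of this range rests on few reads. CPS1 had 32 counts over the 3 Ctrl libraries (exact Poisson 95% interval 21.9 to 45.2) and 21 over the TPL libraries (13 to 32.1), intervals that cover counting error only. TPL against Ctrl gave a log2 fold change of -0.17 (SE 0.35, edgeR adjusted p = 0.858), and an effect of triptolide alone was not detectable at this depth. CPS1 passed the filter on low counts through the decitabine groups alone, since 1 Ctrl library and 0 TPL libraries reached the filter's 0.307 CPM.

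Against vehicle, CPS1 was 14.3-fold higher in DAC (log2 fold change 3.84, SE 0.21) and 28.4-fold higher in DACTPL (4.83, SE 0.20). The step from DAC to DACTPL was 1.99-fold (0.99, SE 0.14), the same size as that of MAPK4. In the presence of triptolide, decitabine went with a 32.1-fold difference (5.00, SE 0.22). The single-drug changes summed to 3.66 on the log2 scale where the combination stood at 4.83, with an interaction of 1.17 (SE 0.37), in which the 53 counts of Ctrl and TPL take part. Across the fits without 1 library the interaction ran from 0.91 to 1.37.

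TAGLN followed another course, with a high level after decitabine alone and none of that excess in the combination. Its levels were 6.29, 7.03 and 7.36 CPM in Ctrl, 7.12, 6.38 and 6.18 CPM in TPL, 10.5, 9.91 and 9.27 CPM in DAC, and 6.09, 6.07 and 6.75 CPM in DACTPL. The DAC libraries lay above all 9 others, and the other 3 groups overlapped one another. Without overlap, 18.1% of all genes had DAC above Ctrl and 10.3% had DACTPL below DAC. The share with DAC above all 9 other libraries was not counted. The means in rising order were 6.3 ± 0.388 CPM in DACTPL, 6.56 ± 0.498 CPM in TPL, 6.89 ± 0.544 CPM in Ctrl and 9.89 ± 0.608 CPM in DAC.

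TAGLN was 1.43-fold higher in DAC than in Ctrl (log2 fold change 0.52, SE 0.09). In DACTPL it was 1.57-fold lower than in DAC (-0.65, SE 0.09), and it differed from Ctrl by -0.13 (SE 0.09) and from TPL by -0.06 (SE 0.09). Triptolide alone gave -0.07 (SE 0.09, edgeR adjusted p = 0.709), which did not pass. The single-drug changes summed to 0.44 on the log2 scale where the combination stood at -0.13, and the interaction was -0.57 (SE 0.13). Without 1 library it ran from -0.63 to -0.51. Libraries differed with gene length, and TAGLN transcripts were 0.394 times the length of the median tested gene, while those of MAPK4 and CPS1 were 1.65 and 2.1 times. With each library's trend on length taken off, the TAGLN interaction was -0.45.

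**Figure D2:**
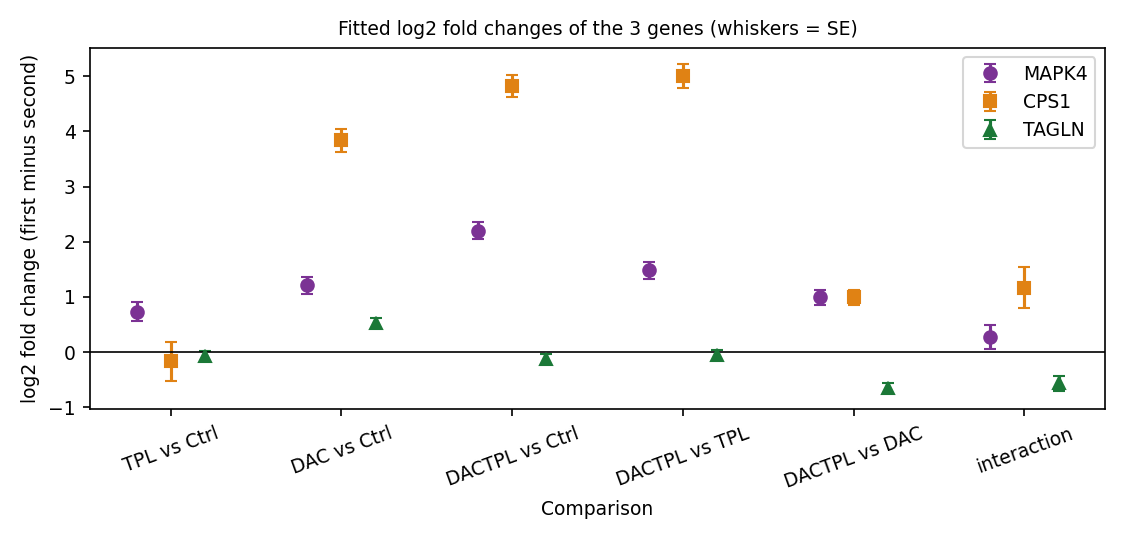
Fitted log2 fold change (vertical axis) of MAPK4, CPS1 and TAGLN in 6 comparisons (horizontal axis), with whiskers for the SE. MAPK4 and CPS1 coincide at 0.99 in DACTPL vs DAC, while TAGLN is above 0 in DAC vs Ctrl (0.52) and below 0 in DACTPL vs DAC (-0.65).

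Over the whole table, DAC vs Ctrl called 996 genes higher (6.27% of those tested) and 570 lower (3.59%). All 3 members were among the 18.1% of genes whose DAC libraries lay above Ctrl without overlap, while 15.3% lay below. In DACTPL vs Ctrl, MAPK4 and CPS1 were among the 19.2% of genes above Ctrl without overlap, with 16.3% below it (8.64% were called higher and 4.83% lower). In DACTPL vs TPL they were among the 14.9% above TPL, with 12.2% below it (6.93% called higher and 3.59% lower). For the interaction, edgeR called 1 gene (0.00629%), EYA4-AS1 (log2 value 0.85), which is no member and was named after its value was seen.

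Per unit of transcript length, TAGLN was the most abundant member in every group. Its level was 8.53 ± 0.401 TPM, a length-corrected share of the transcripts, in Ctrl and 11.5 ± 0.512 TPM in DAC. MAPK4 stood at 0.353 ± 0.0451 TPM in Ctrl and 1.34 ± 0.0802 TPM in DACTPL, and CPS1 at 0.0867 ± 0.0306 and 1.65 ± 0.166 TPM. CPS1 thus went from the lower of this pair in Ctrl to the higher in DACTPL. Ranked by TPM, 31.3% of genes lay below CPS1 in Ctrl and 52.4% in DACTPL, while for TAGLN the share was 67.9% in Ctrl and 73.6% in DAC. These TPM are posterior mean estimates, which can lie above 0 without counts. PAK3, with 0 counts in all libraries, stood at 0.09 TPM in Ctrl. The level and rank of CPS1 in Ctrl are thus at the floor of this measure.

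The comparison with TPL looked different on the TPM scale. There MAPK4 was 1.25 times its Ctrl level in TPL, and the groups overlapped, with 0.36 TPM in the lowest TPL library and 0.4 TPM in the highest Ctrl library. TAGLN was 0.75 times its Ctrl level, at 6.01 to 6.79 TPM in TPL and 8.11 to 8.91 TPM in Ctrl. The median of all tested genes moved as well, by -0.36 on log2(TPM + 0.1) and by -0.29 on log2(TPM + 1). Relative to the former median, MAPK4 stood at 0.61 and TAGLN at -0.05. TPM add up to the same total in each library, and RPPH1, the short RNA of RNase P, held 7.51 to 9.03% of that total in Ctrl, 12.8 to 16.6% in TPL, 10.2 to 11.3% in DAC and 10.7 to 11.7% in DACTPL. The part of RPPH1 in the shift of the median was not tested. In DACTPL vs DAC the median moved by -0.04 on log2(TPM + 0.1), and MAPK4, CPS1 and TAGLN stood at 0.87, 0.89 and -0.67 relative to it.

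Among 13903 genes with a mean of at least 1 CPM, those whose log2 CPM followed the members most closely over the 12 libraries were picked by Pearson correlation, as a description. The libraries share 4 group levels, so a high correlation needs little more than a similar order of groups. For MAPK4 they were PRKAB1 (r = 0.970), TMEM173 (0.970) and TMEM189 (0.968). TMEM173, the DNA-sensing adaptor STING, went from 30.3 ± 2.4 CPM in Ctrl through 35.2 ± 1 and 38.6 ± 3.66 CPM to 44.3 ± 1.21 CPM in DACTPL, in the same order of groups but over a smaller range. For CPS1 they were NELL2 (0.995), the glucose transporter SLC2A3 (0.993) and the aldehyde dehydrogenase ALDH3A1 (0.991). ALDH3A1 stood at 1.63 ± 0.0954 CPM in Ctrl, 1.55 ± 0.242 CPM in TPL, 9.75 ± 0.453 CPM in DAC and 14 ± 1.42 CPM in DACTPL. For TAGLN the best were NRBP1 (0.942), TXNRD2 (0.906) and CCDC85C (0.903), all with small ranges.

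**Figure D3:**
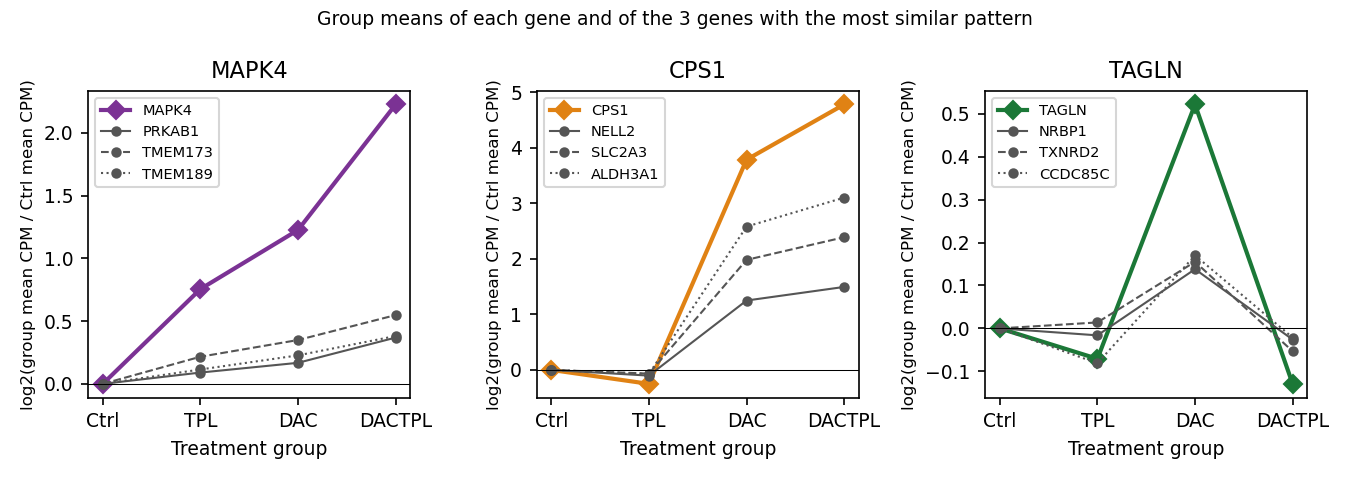
Log2 ratio of each group's mean CPM to the Ctrl mean (vertical axis) by treatment group (horizontal axis), for each member (coloured diamonds) and the 3 genes with the highest Pearson correlation to it over 12 libraries (grey). The members span wider ranges than the genes like them, and ALDH3A1, at 1.63 CPM in Ctrl and 14 CPM in DACTPL, comes nearest to CPS1.

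At the opposite end, ARHGAP40 ran most against MAPK4 (r = -0.975), from 3.38 ± 0.2 CPM in Ctrl to 1.91 ± 0.103 CPM in DACTPL. TRNP1 ran most against CPS1 (-0.977), from 283 ± 13.6 to 166 ± 9.74 CPM. MST1R, a receptor tyrosine kinase, ran most against TAGLN (-0.900), with 37.7 ± 2.09 CPM in DAC and 45 ± 1.44 CPM in Ctrl. Among the members themselves the correlation was 0.87 for MAPK4 with CPS1, -0.04 for MAPK4 with TAGLN and 0.28 for CPS1 with TAGLN.

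Of 23 tested partners and relatives of MAPK4, edgeR called 0 in TPL vs Ctrl (2.47% of all genes) and 0 in DACTPL vs DAC (0.0315% of all genes). In each of these comparisons 3 had an unadjusted p under 0.05, and DESeq2 called 0. In DAC vs Ctrl 1 was called lower (9.86% of all genes were called), in DACTPL vs Ctrl 1 higher and 1 lower (13.5%), and in DACTPL vs TPL 2 lower (10.5%). Without 1 library these totals of 1, 2 and 2 ran from 0 to 2, from 1 to 4 and from 1 to 4. The first was 0 without Ctrl replicate 2 or DAC replicate 1 or 2. With only the compared groups in the fit, the last was 0. MAPK6, which encodes ERK3, the closest relative of ERK4, stood at 187 ± 7.41 CPM in Ctrl and at 162 ± 5.16 CPM in DACTPL and fell in DACTPL vs TPL by 0.23 on the log2 scale (SE 0.06, edgeR adjusted p = 0.039). MAPKAPK5, which encodes MK5, stood at 38.3 ± 1.54 CPM in Ctrl and at 34.9 ± 2.26 CPM in DACTPL and was not called in any comparison. The kinase NLK fell in DAC from 46 ± 0.613 to 39.7 ± 0.977 CPM (edgeR adjusted p = 0.0129), and AKT1, a substrate of ERK4, rose in DACTPL from 179 ± 2.86 to 202 ± 5.01 CPM (log2 fold change 0.17, adjusted p = 0.0332).

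Genes around the urea cycle were called in both directions. Of 23 tested genes of this list, which spans the cycle, glutamine and ammonia handling and the entry to pyrimidines, edgeR called 1 higher and 1 lower in DAC vs Ctrl (9.86% of all genes were called) and 2 higher and 3 lower in DACTPL vs Ctrl (13.5% of all genes), with medians of 0.04 and -0.09 beside 0.01 for all genes in either comparison. The 5 calls in DACTPL vs Ctrl ran from 1 without Ctrl replicate 2 to 9 without TPL replicate 3, and were 2 without Ctrl replicate 1 and 3 without DACTPL replicate 2 or 3. In DACTPL vs DAC 0 were called, beside 0.0315% of all genes (7 at an unadjusted p under 0.05, 0 by DESeq2). ASS1, the argininosuccinate synthetase that acts downstream in the cycle, rose in each treated group. It was at 65.3 ± 3.45 CPM in Ctrl, 87.9 ± 0.745 CPM in TPL (edgeR adjusted p = 0.00546), 117 ± 2.02 CPM in DAC (1.3e-06) and 131 ± 9.16 CPM in DACTPL (1.97e-07). OTC, which uses the product of CPS1, had 2 counts in all 12 libraries, ARG1 had 0, and NAGS, which makes the activator of CPS1, stood at 12.3 ± 0.428 CPM in Ctrl and at 10.1 ± 1.01 CPM in DACTPL and was not called.

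Genes that supply or use related metabolites were called in both directions in DACTPL vs Ctrl. The glutaminase GLS2 fell in DACTPL from 9.69 ± 0.622 to 7.24 ± 0.527 CPM (edgeR adjusted p = 0.0181). DHODH, an enzyme of pyrimidine synthesis, fell in DACTPL from 15.9 ± 1.6 to 12.8 ± 0.503 CPM (0.0334). CAD, the cytosolic enzyme that makes carbamoyl phosphate for pyrimidines, stood at 166 ± 16.5 CPM in Ctrl and at 157 ± 24.1 CPM in DACTPL and was not called in any comparison. NOS2, an arginine-consuming nitric oxide synthase, rose in DACTPL from 0.721 ± 0.0273 to 1.18 ± 0.156 CPM (0.038).

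Of 36 tested contractile, actin-binding and SRF target genes, 3 were called higher and 0 lower in DAC vs Ctrl (9.86% of all genes were called), and the list's median was 0.06. In DACTPL vs Ctrl 5 were called higher and 2 lower (13.5% of all genes), with a median of 0.05. Without 1 library these totals of 3 and 7 ran from 2 to 9 and from 0 to 9: the first was 9 without TPL replicate 3 and 6 without DAC replicate 3, and the second was 0 without Ctrl replicate 1 or 2, 2 without DACTPL replicate 1, 3 without DACTPL replicate 2 or 3 and 4 without DAC replicate 1 or 2. In DACTPL vs DAC 0 were called by edgeR (0.0315% of all genes), 7 had an unadjusted p under 0.05, and 3 were called by DESeq2. The median there was -0.04 beside 0.01 for all genes. The light chain MYL9 rose in DAC from 66.3 ± 2.26 to 80.6 ± 2.83 CPM (edgeR adjusted p = 0.00552) and was at 67.7 ± 1.98 CPM in DACTPL, a log2 difference from DAC of -0.25 (SE 0.05, adjusted p = 0.187). CSRP1, a LIM protein of smooth muscle, rose in DAC from 137 ± 5.29 to 198 ± 24.5 CPM (0.00549) and was at 166 ± 9.66 CPM in DACTPL (-0.26, SE 0.10, adjusted p = 0.29 against DAC). The actinin ACTN4 also rose in DAC (log2 fold change 0.23, edgeR adjusted p = 0.0213), with 651 ± 22.5 CPM there and 647 ± 30.7 CPM in DACTPL. ANKRD1 was highest in DAC, as TAGLN was, but was not called in any comparison. It was at 13.4 ± 0.921 CPM in Ctrl, 11 ± 4.26 CPM in TPL, 23.9 ± 5.24 CPM in DAC and 12.8 ± 1.6 CPM in DACTPL. Its log2 difference between DACTPL and DAC was -0.90 (SE 0.25, edgeR adjusted p = 0.272), the lowest of the list.

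Further genes of this list had other orders of groups. ACTA2, smooth muscle actin, was at 1.42 ± 0.078 CPM in Ctrl, 2.13 ± 0.183 CPM in DAC and 2.15 ± 0.208 CPM in DACTPL. The tropomyosin TPM1 fell in DACTPL from 119 ± 8.26 to 89.3 ± 3.4 CPM (edgeR adjusted p = 0.0134), and MYL6 rose in TPL from 472 ± 51.5 to 706 ± 54 CPM (0.00685). SRF itself stood at 52.9 ± 0.665 CPM in Ctrl and at 50.2 ± 1.85 CPM in DACTPL and was not called, while its coactivator MKL1 rose in DACTPL from 19.8 ± 1.37 to 25.5 ± 0.131 CPM (0.0289). Of the transgelin family, TAGLN2 stood at 446 ± 13.4 CPM in Ctrl and at 499 ± 2.57 CPM in DACTPL and was not called, and TAGLN3 had 2 counts in all. CNN1, a calponin of smooth muscle, had 11 counts in all, each in a decitabine library.

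**Figure D4:**
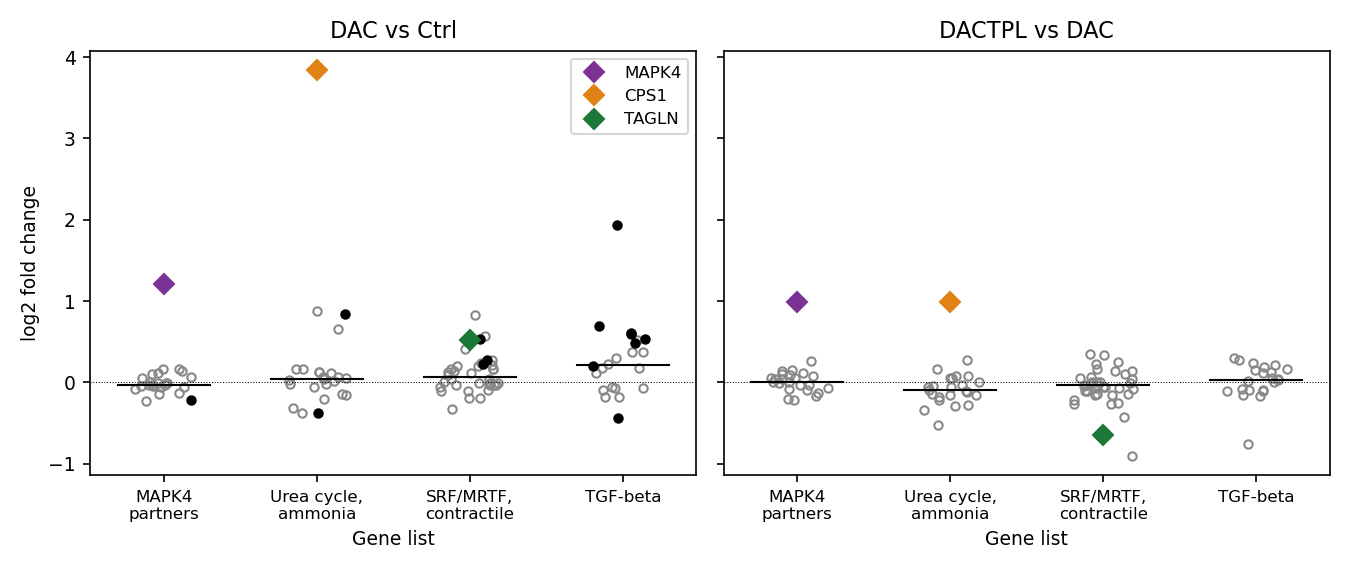
Log2 fold change (vertical axis) of each tested gene of 4 lists (horizontal axis) in DAC vs Ctrl and in DACTPL vs DAC, with filled points for genes called by edgeR, open points for others, bars for list medians and diamonds for MAPK4, CPS1 and TAGLN, each in its own list. In DACTPL vs DAC, where edgeR called 0.0315% of all genes, the lists hold no filled point. MAPK4 and CPS1, both at 0.99 there, lie above all other genes drawn, but the members were selected by this contrast.

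The last list was that of the TGF-beta pathway, which induces TAGLN. Of 22 tested, 7 were called higher and 1 lower in DAC vs Ctrl (9.86% of all genes were called), with a median of 0.21, and 7 were called higher in DACTPL vs Ctrl (13.5% of all genes), with a median of 0.36, beside medians of 0.01 for all genes. The 8 calls in DAC vs Ctrl became 3 without Ctrl replicate 1 or 2, 4 without DAC replicate 2, 5 without DAC replicate 1 or 3, and 10 without Ctrl replicate 3. The 7 calls in DACTPL vs Ctrl became 4 without Ctrl replicate 1 or 2. The basement membrane collagens COL4A1 (39.8 ± 0.95 to 57.4 ± 3.11 CPM, edgeR adjusted p = 8.24e-05) and COL4A2 (90.9 ± 1.85 to 138 ± 8.24 CPM, 0.00012) rose in DAC and stood at 53.8 ± 1.75 and 124 ± 7.19 CPM in DACTPL. In DACTPL vs DAC 0 genes of this list were called, beside 0.0315% of all genes (6 at an unadjusted p under 0.05, 0 by DESeq2).

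The genes beside the members were taken in RefSeq order of GRCh38.p14, used for names alone. Of them, edgeR called ERBB4 and SIDT2 higher in DAC vs Ctrl (9.86% of all genes were called) and in DACTPL vs Ctrl (13.5%). Around MAPK4 on chromosome 18, SKA1, CXXC1, MRO and ME2 were not called in any comparison. MRO, the nearest on one side, stood at 3.19 ± 0.699 CPM in Ctrl, 2.64 ± 0.253 CPM in TPL, 2.46 ± 0.285 CPM in DAC and 3.4 ± 0.432 CPM in DACTPL. Its log2 fold change was -0.37 (SE 0.17) in DAC vs Ctrl and 0.46 (SE 0.17, edgeR adjusted p = 0.275) in DACTPL vs DAC. Beside CPS1 on chromosome 2, LANCL1 stood at 75.2 ± 4.1 CPM in Ctrl and at 81.9 ± 10 CPM in DACTPL and was not called, and the intronic transcript CPS1-IT1 had 5 counts in all. ERBB4, a receptor tyrosine kinase on the other side of CPS1, was at 0.1 to 0.146 CPM in Ctrl, 0.155 to 0.23 CPM in TPL, 0.182 to 0.474 CPM in DAC and 0.373 to 0.448 CPM in DACTPL. It was called higher in DAC (log2 fold change 1.44) and in DACTPL (1.68) against Ctrl on 15 counts in Ctrl, and it passed the filter through the decitabine groups.

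TAGLN on chromosome 11 overlaps PCSK7, a proprotein convertase gene, and a noncoding gene, LOC100652768, in this annotation. How reads in the overlap were divided is not given in the sources used here, so TAGLN counts are uncertain to that extent. PCSK7 was at 32.3 ± 4.53 CPM in Ctrl, 33.9 ± 4.71 CPM in DAC and 34.9 ± 2.33 CPM in DACTPL and was not called in any comparison. SIDT2, the gene before it in that order, rose in DAC (18.7 ± 0.263 to 22.7 ± 1.82 CPM) and stood at 25.4 ± 1.91 CPM in DACTPL, where TAGLN stood at 6.3 CPM.

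The members also appear in the authors' deposited tables. In the authors' deposited table for DACTPL vs DAC, the log2 fold changes were 0.77 for MAPK4, 0.80 for CPS1 and -0.57 for TAGLN. In the authors' deposited table for DAC vs Ctrl they were 0.77, 2.00 and 0.45, and for CPS1 this is 4.01-fold, where the group means in CPM differed 13.8-fold. No source used here says whether the fold changes in the authors' deposited table were shrunken towards 0. The authors' deposited table for TPL vs Ctrl gave MAPK4 a log2 fold change of 0.46 with an adjusted p of 0.0255. The z-scores in the authors' deposited table of 704 selected genes had the same order of groups as the CPM for MAPK4, with means of -0.97, -0.50, -0.06 and 1.54 in Ctrl, TPL, DAC and DACTPL. For TAGLN the mean z-score was 1.57 in DAC and -0.73 in DACTPL.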

How the data were processed

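Total RNA libraries, prepared with a stranded kit and read in pairs of 100 bases per the labels' protocols, were turned by the authors into expected counts and TPM (posterior mean estimates, per the file headers) per gene. The submitters' processing notes name RSEM 1.2.09, the hg19 build, DESeq2 and R 4.0.4. For the aligner, annotation and strand setting, nothing was given in the sources used here. Comparison tables deposited by the authors hold log2 fold changes, a test statistic (score) and p-values from DESeq2, per the file headers, and a further deposited table holds a z-score per gene and sample. The members and gene lists were chosen with earlier results of these data known.

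Expected counts (64.3% within 0.005 of a whole number) were rounded and tested with edgeR 4.0.16 under R 4.3.3: TMM, filterByExpr by group (minimum count 10), a robust quasi-likelihood fit over 12 libraries without a block, and Benjamini-Hochberg adjustment over 15890 genes, two-sided, called below 0.05. The SE is the absolute log2 fold change divided by the square root of F. The interaction is DACTPL minus TPL minus DAC plus Ctrl. CPM use TMM-scaled library sizes. Correlations used log2 CPM with a prior count of 2. Alternatives included limma 3.58.1 on TPM and DESeq2 1.42.0. These edgeR steps were tested on simulated data.

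Besides the members, named genes were the called list members with the largest changes (up to 4 a list and comparison, reaching 1 CPM in either group), genes named by role, the 3 genes most and least correlated with each member, and its nearest 2 genes on either side. A selection is printed. Some named genes are not reported here. RPPH1, ANKRD1 and the genes named at the threshold or as sole calls were chosen after their values were seen. Same-numbered libraries deviated together in Ctrl and TPL (r of 0.25, 0.56 and 0.58) and in Ctrl and DAC (0.2, 0.29 and 0.65), above the 0.1 set for pairing, but not in all pairs with DACTPL (lowest -0.46). With the replicate block, calls in DAC vs Ctrl went from 1566 to 2574. Replicate pairs differed by more than sampling noise (chi-square per degree of freedom of 2.65 or more), and all 12 libraries were counted. For replicates 1 and 2 the value was 3.18 in Ctrl, 2.65 in TPL and 4.23 in DAC. Pairs with replicate 3 in these groups ran from 12.4 to 48.2. In DACTPL, replicates 1 and 2 gave 37.5 and the other pairs 14.6 and 17.1. These values do not show whether the libraries came from separate cultures.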

Additional observations from a re-analysis of the deposited data

How the results depend on the processing

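Over the 23 alternatives the log2 fold changes in DACTPL vs DAC, the contrast that chose the members, ran from 0.45 to 1.10 for MAPK4, 0.50 to 1.13 for CPS1 and -0.77 to -0.59 for TAGLN. Without 1 library, genes called ranged from 753 to 2345 in DAC vs Ctrl, 1146 to 3065 in DACTPL vs Ctrl, 0 to 11 in DACTPL vs DAC, 955 to 3285 in DACTPL vs TPL, 25 to 930 in TPL vs Ctrl and 0 to 950 for the interaction, and MAPK4 in TPL vs Ctrl from 0.63 to 0.87. With the replicate block, calls were 2574 in DAC vs Ctrl, 3396 in DACTPL vs Ctrl, 580 in DACTPL vs DAC, 2579 in DACTPL vs TPL and 1288 in TPL vs Ctrl, and MAPK4 in TPL vs Ctrl kept its call. Same-numbered libraries did not all deviate together with DACTPL, where the lowest correlation was -0.46.

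With limma on log2(TPM + 1), which compresses low genes, CPS1 stood at 0.78 in DAC vs Ctrl, 1.28 in DACTPL vs Ctrl, 0.50 in DACTPL vs DAC, 1.32 in DACTPL vs TPL and 0.53 for the interaction. MAPK4 stood at 0.34, 0.79, 0.45 and 0.70 in those comparisons and at 0.09 in TPL vs Ctrl (limma adjusted p = 0.191). TAGLN stood at 0.39 in DAC vs Ctrl, -0.25 in DACTPL vs Ctrl, 0.11 in DACTPL vs TPL, -0.37 in TPL vs Ctrl (limma adjusted p = 0.000857) and -0.28 for the interaction. Genes called were 4764 in DACTPL vs Ctrl, 5639 in DACTPL vs TPL, 10831 in TPL vs Ctrl and 5098 for the interaction. With log2(TPM + 0.1), CPS1 stood at 2.38 in DAC vs Ctrl, 3.24 in DACTPL vs Ctrl and 3.42 in DACTPL vs TPL. MAPK4 stood at 0.83 in DAC vs Ctrl, 1.67 in DACTPL vs Ctrl, 0.83 in DACTPL vs DAC, 0.58 for the interaction and 0.26 in TPL vs Ctrl (limma adjusted p = 0.143). TAGLN stood at -0.28 in DACTPL vs Ctrl, 0.13 in DACTPL vs TPL, -0.41 in TPL vs Ctrl (limma adjusted p = 0.000802) and -0.30 for the interaction. Calls were 4643 in DACTPL vs Ctrl, 1 in DACTPL vs DAC, 5786 in DACTPL vs TPL, 10907 in TPL vs Ctrl and 5103 for the interaction. On these scales the median of all genes itself moved, by -0.36 in TPL vs Ctrl and 0.21 in DACTPL vs TPL with the smaller pseudocount.

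Leaving out the 4 libraries numbered 3, CPS1 stood at 3.49 in DAC vs Ctrl and 1.62 for the interaction, and TAGLN at -0.77 in DACTPL vs DAC, -0.17 in DACTPL vs TPL and -0.79 for the interaction, with 2806 calls in DAC vs Ctrl, 3815 in DACTPL vs Ctrl, 2134 in DACTPL vs DAC, 3709 in DACTPL vs TPL, 1865 in TPL vs Ctrl and 2049 for the interaction. With only the compared groups, calls were 784 in DACTPL vs TPL and 23 in TPL vs Ctrl, where MAPK4 stood at 0.73 (edgeR adjusted p = 0.158) and CPS1 did not pass the filter. With the length trend taken off, the TAGLN interaction was -0.45, and calls were 219 in TPL vs Ctrl and 3 for the interaction. MAPK4 in TPL vs Ctrl was 0.72 with upper-quartile normalization (edgeR adjusted p = 0.0535, 7 interaction calls) and 0.72 with no filter (0.0536, 8 interaction calls). DESeq2 called 84 genes in DACTPL vs DAC, 822 in TPL vs Ctrl and 110 for the interaction. For the changes listed here the cause was not tested. Of the recomputed counts of called list genes, 412 of 548 stayed within 1.5-fold, and depth limited CPS1 without decitabine, where 32 and 21 counts stand behind the Ctrl and TPL levels.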
